A study of Homo sapiens with 6 samples.

Results

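The genes described are those for the nuclear-encoded subunits of the 5 complexes of oxidative phosphorylation, measured in H441 cells with and without siRNA against the transcription factor ETS2. They were chosen by name alone: every gene whose only annotated symbol begins with NDUFA, NDUFB, NDUFC, NDUFS or NDUFV and a digit, is SDHA to SDHD, or begins with UQCR, COX4 to COX8 or ATP5, without pseudogenes. That gave 78 of 18417 genes, 33 in complex I, 3 in complex II, 7 in complex III, 17 in complex IV and 18 in complex V. Pseudogenes were left out by the annotation of the symbol, and where each probe lies in the genome was not checked beyond its number. By number the brightest probes of SDHD, NDUFV2 and ATP5MK fall beside those of genes on other chromosomes. Their readings may therefore not be those of the gene itself. H441 is an established lung adenocarcinoma line. The control group received a scrambled siRNA pool and the other group an ETS2 siRNA pool, both with a lipid reagent, and RNA was taken after 48 h. Each group holds 3 arrays, which the series describes as separate transfections of the same line, so the p-values measure the spread between transfections and not between tumours or donors. A single siRNA pool per group was used, with no untransfected group. In bulk RNA, fewer cells of a kind and less RNA per cell cannot be told apart.

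Complex I takes electrons from NADH and complex II from succinate. Both pass them to ubiquinone, complex III hands them on to cytochrome c, and complex IV delivers them to oxygen. Complexes I, III and IV pump protons out of the mitochondrial matrix, and complex V, the ATP synthase, lets them back in to make ATP. Most subunits are encoded in the nucleus, and several of their promoters are textbook targets of NRF1, of YY1 and of GABP, an ETS-family factor also called NRF2.

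Levels are given as RMA summaries in log2 units, in which a step of 1 is a doubling. A level depends on the probe as well as on the transcript, so levels are compared only between arrays for the same gene. Differences are ETS2 siRNA minus control, fitted over all 18417 genes with limma, and a gene counts as changed at a Benjamini-Hochberg adjusted p under 0.05. SE marks limma's standard error of a difference, with 3 arrays per group. ETS2 itself read 9.79, 9.91 and 9.79 on the control arrays and 8.87, 8.70 and 8.78 after ETS2 siRNA, a fall of 1.05 (SE 0.0565, adjusted p = 0.000254). Of 8 measured lung epithelial markers all 8 lay above a background floor of 6.67, which was set from olfactory receptor genes. Markers of other cell types lay above it for 1 of 4 leukocyte genes (CD14), 4 of 6 fibroblast genes (COL1A1, COL1A2, COL3A1 and LUM) and 2 of 5 endothelial genes (KDR and CLDN5), while PTPRC, CD3E, LYZ, DCN, PDGFRA, PECAM1, CDH5 and VWF lay below it. Their mean level per array ran from 5.53 to 5.60, 6.94 to 7.02 and 7.14 to 7.18 in control cells and from 5.52 to 5.64, 6.96 to 7.0 and 7.10 to 7.21 after ETS2 siRNA, in the same order. Over all of these lists 1 gene changed, the surfactant gene SFTPB, at -0.36, and the part of other cells in the results was not tested.

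ETS-family factors, ETS2 and GABP among them, share a short DNA core built on GGAA, so the reference sequence around the start of each subunit gene was searched for it. RefSeq windows of GRCh38.p14, running from 250 bases before to 50 bases after a transcription start, were matched by symbol for 66 of the 78 genes, with 79 windows. Without a window were NDUFB5, NDUFB9, SDHC, UQCRB, COX4I2, COX6C, COX7A1, ATP5F1B, ATP5F1D, ATP5MC3, ATP5MF and ATP5MGL. Their differences ran from -0.17 (COX6C) and -0.15 (UQCRB) to 0.09 (ATP5MC3), and they are missing from the comparison by core. The core CCGGAAG was sought on both strands. It was present in 21 of the 79 windows (26.6%), against 3603 of 35116 windows of all genes (10.3%), at a median GC content of 59.0% and 58.7%. The following stretches, written 5′ to 3′ along the gene, lie before the start of 6 subunit genes and show the core in capitals, as CCGGAAG or as CTTCCGG where it lies on the other strand. They were picked because the genes span the range of differences from the lowest to the highest found among genes with the core.
NDUFA1 (chrX:119871745-119871831, plus strand): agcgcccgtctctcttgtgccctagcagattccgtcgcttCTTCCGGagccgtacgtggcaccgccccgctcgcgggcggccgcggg
NDUFB7 (chr19:14572067-14572153, minus strand): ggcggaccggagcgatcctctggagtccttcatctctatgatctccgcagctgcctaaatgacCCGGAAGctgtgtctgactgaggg
SDHD (chr11:112086756-112086842, plus strand): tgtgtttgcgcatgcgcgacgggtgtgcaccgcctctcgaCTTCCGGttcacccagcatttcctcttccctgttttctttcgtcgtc
UQCR11 (chr19:1605513-1605599, minus strand): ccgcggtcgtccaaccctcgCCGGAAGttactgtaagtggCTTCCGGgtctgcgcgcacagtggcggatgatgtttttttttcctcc
COX6B1 (chr19:35648236-35648322, plus strand): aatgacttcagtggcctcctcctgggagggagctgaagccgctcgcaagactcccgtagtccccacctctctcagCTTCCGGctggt
COX6A1 (chr12:120438026-120438112, plus strand): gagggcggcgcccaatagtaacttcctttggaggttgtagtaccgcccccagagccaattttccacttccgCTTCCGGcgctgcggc

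UQCR11 carries the core once on each strand. In COX6B1 the match begins 12 bases before the start, in COX6A1 16 bases, in NDUFB7 24 bases, in NDUFA1 47 bases and in SDHD 77 bases. Since these genes were picked to span the range, their spread says nothing about genes with the core as a whole. NDUFA1 stood at -0.14 and COX6B1 at -0.13, COX6A1 at 0.00 and SDHD at 0.01, UQCR11 at 0.04 and NDUFB7 at 0.11, and none of them passed the test.

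The median difference was -0.0050 over the 20 genes with the core and -0.0083 over the 46 without it. Of the 20, 8 were positive and 11 negative. Of the 46, 19 were positive and 26 negative. The core was found in 5 of 31 matched genes of complex I, 1 of 2 of complex II, 3 of 6 of complex III, 5 of 14 of complex IV and 6 of 13 of complex V. The core CGCCATNTT, bound by YY1, was sought in the same way and stood in 17 of 79 windows (21.5%) against 3.19% of all. The median difference was -0.0033 over the 15 genes with it and -0.0067 over the 51 without. A core of NRF1 was also sought and stood in 4 of 79 windows (5.06%) against 1.24% of all, with a median of -0.038 over the 4 genes with it and -0.0050 over the 62 without. These matches describe letters in a window and were not tested as binding sites.

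**Figure D1:**
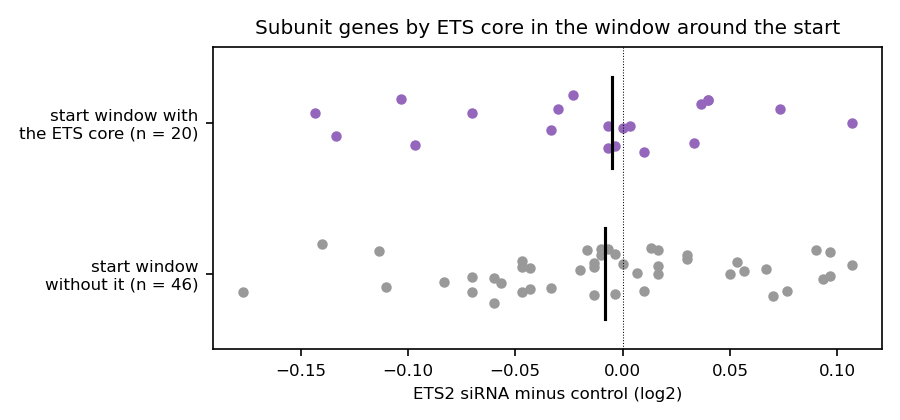
Difference after ETS2 siRNA (log2, horizontal axis) of the 66 subunit genes with a matched start window, split by whether the window holds the ETS core. Each point is a gene, placed vertically at random within its row, and the bars are medians, -0.0050 for the 20 genes with the core and -0.0083 for the 46 without.

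After ETS2 siRNA 0 of the 78 subunit genes changed, where 904 of all genes did (4.91%, with 2.28% higher and 2.63% lower). At an adjusted p under 0.1 there were 2, NDUFC1 and COX6B1, against a background of 8.31%. At an unadjusted p under 0.05 there were 11, 2 higher and 9 lower, or 14.1% of the subunit genes against a background of 18.5% (9.28% higher and 9.23% lower). The 3 arrays of each group did not overlap for 16 genes, 6 higher and 10 lower, or 20.5% against a background of 23.1% (11.6% higher and 11.5% lower). At the brightest probe of each gene, differences ran from -0.18 to 0.11 and had a median of -0.0050, beside 0.0033 over all genes. The median size of a difference, whatever its sign, was 0.040 for the subunits and 0.053 for all genes. The 0 depends on the settings. When only the 13056 genes above the floor were tested, limma called 2 of 74 subunit genes (NDUFC1 and COX6B1). It called 686 genes higher and 706 lower in all there. With array weights it called the same 2 of 78, beside 780 of 18417 genes higher and 700 lower. With a variance trend on intensity it called 6 of 78, beside 1963 of 18417 genes in all. The 6 were NDUFC1, NDUFB4, NDUFV1, COX6C and COX6B1, all lower, and ATP5MC1, higher.

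The precision of these arrays bounds how large a difference in the RMA summaries could have gone unseen, which need not equal the change in the transcript. The 95% interval lay inside a 1.2-fold change either way (0.26 on the log2 scale) for 74 of the 78 genes (94.9%), and for 82.7% of all genes. The exceptions were NDUFC1, NDUFA1, UQCRB and COX6C, each with a lower bound between -0.28 and -0.31. No upper bound exceeded 0.26. In sign, 32 subunit genes were positive (41.0%, against 50.8% of all genes), 44 negative and 2 exactly 0. Of the 74 above the floor 28 were positive (37.8%, against 51.4% of all genes above it). Centring each array on its median shifts all genes alike: it moved the median of all genes from 0.0033 to 0.013 and the positive share of the subunits to 55.1%, and the subunits' median lay 0.0083 below that of all genes either way.

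**Figure D2:**
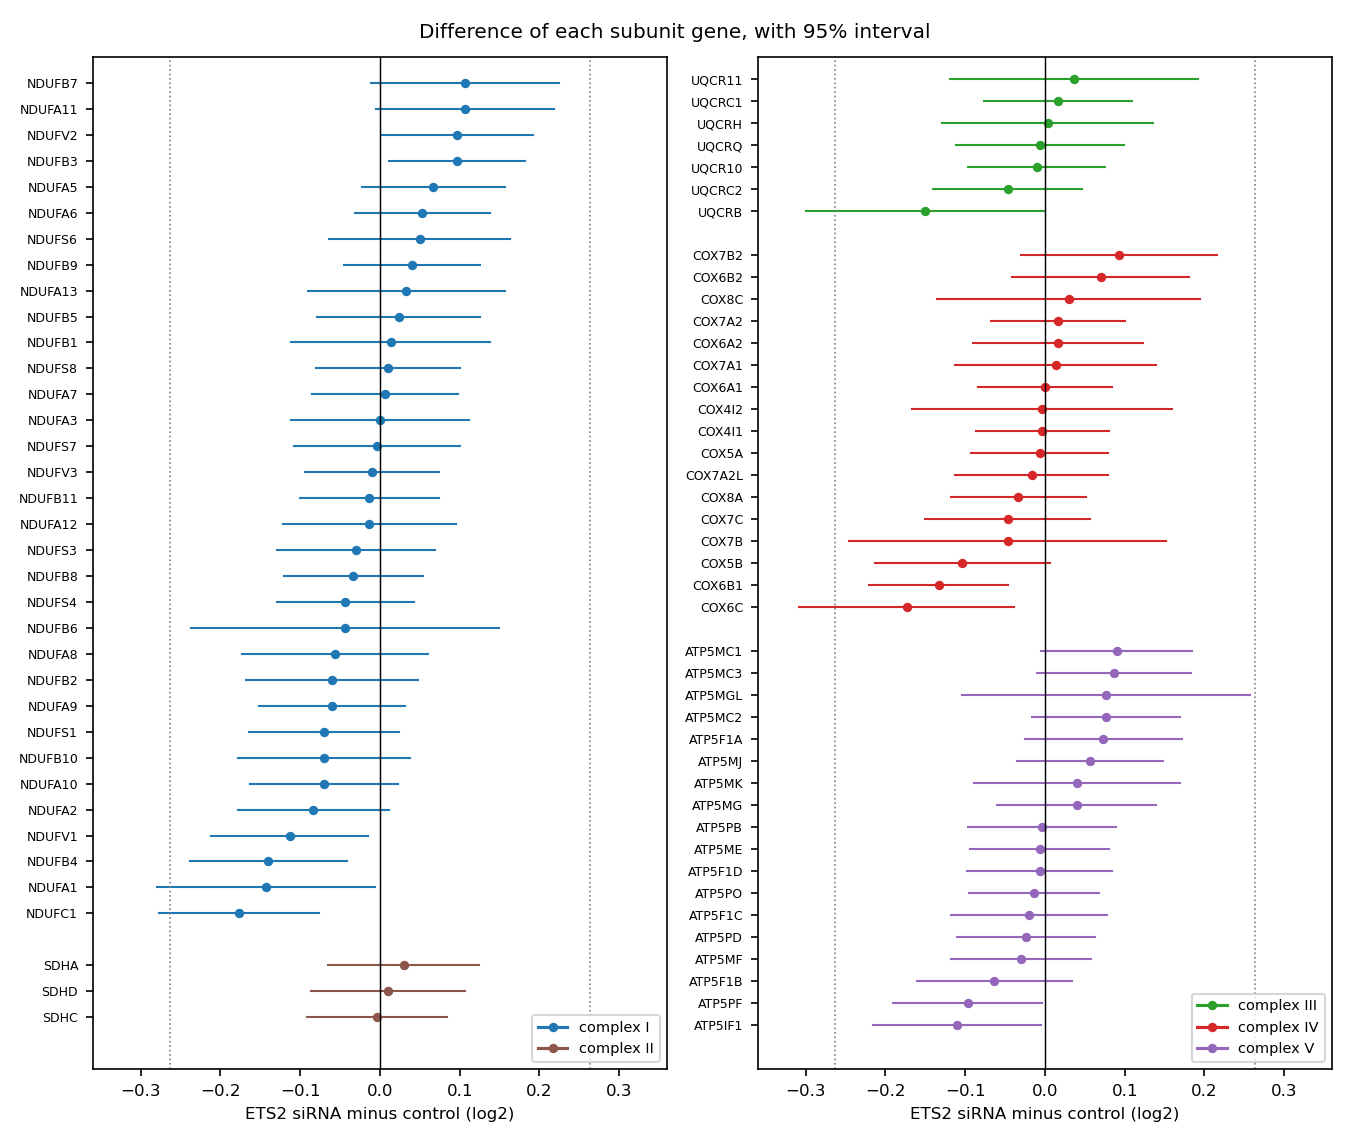
Difference after ETS2 siRNA (log2, horizontal axis) of each of the 78 subunit genes, with limma's 95% interval, in order of size within each complex; n = 3 arrays per group. Dotted lines mark a 1.2-fold change either way, which the intervals of 4 genes cross, all on the lower side.

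Averages over the genes of a complex stayed within 0.04 of their mean on every array. The mean deviation from each gene's mean over the 6 arrays lay between -0.0018 and 0.023 on the control arrays for complex I and between -0.022 and 0.010 after ETS2 siRNA. For complex IV the values were 0.0029 to 0.021 in control and -0.025 to 0.0024 after ETS2 siRNA, which do not overlap but nearly meet. For complexes II, III and V, and for all 78 genes, the groups overlapped. Control replicate 2 gave the highest reading of the 6 arrays for 24 of the 78 genes, and ETS2 siRNA replicate 1 the lowest for 21. No p is given for these averages.

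**Figure D3:**
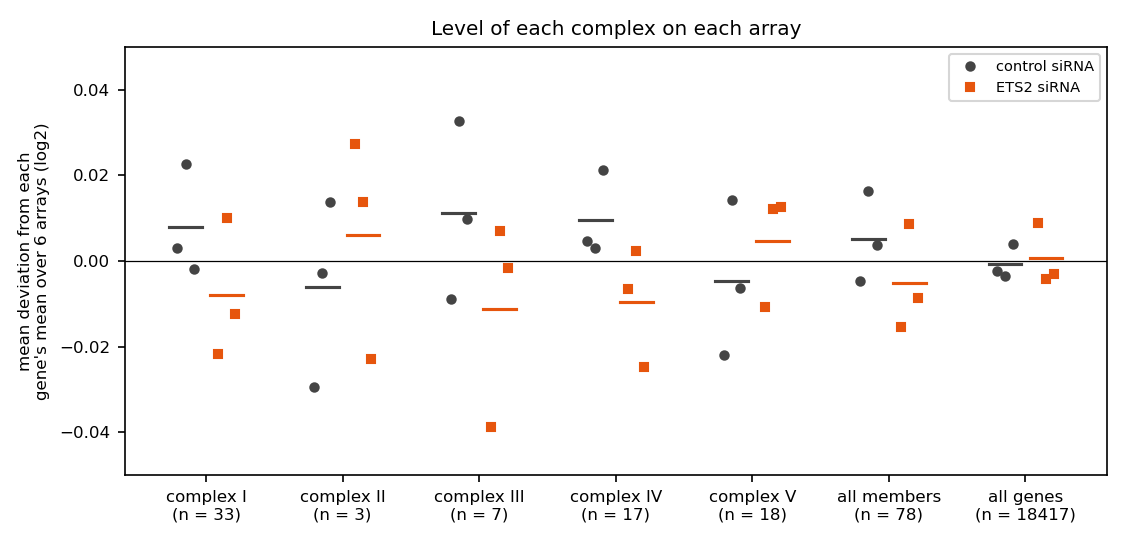
Mean deviation of each complex on each array from its genes' means over all 6 arrays (log2, vertical axis), for control (circles) and ETS2 siRNA (squares); bars are means of 3 arrays and n is the number of genes. All values of the 5 complexes lie between -0.039 and 0.033, and the groups overlap for complexes I, II, III and V.

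In complex I the median of the 33 differences was -0.013, with 13 positive and 19 negative, and all 33 genes read above the floor. NDUFC1, a small subunit of the membrane arm, came closest to the threshold of all subunit genes. It read 9.73, 9.74 and 9.77 in control cells and 9.51, 9.63 and 9.57 after ETS2 siRNA, so that every treated array lay below every control array. Its difference of -0.18 (SE 0.0434) was bounded at 95% by -0.28 and -0.08, with adjusted p = 0.0614. Leaving out 1 array moved that p to between 0.0903 and 0.183, while testing only genes above the floor took it to 0.0305 and array weights to 0.0408.

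NDUFB4, another membrane-arm subunit, read 10.70, 10.76 and 10.64 in control cells and 10.56, 10.55 and 10.57 after ETS2 siRNA. The groups did not overlap, and the difference was -0.14 (SE 0.0427, adjusted p = 0.117). Its 2 probes hold identical values on all arrays and are a single reading. NDUFA1, also of the membrane arm, stood at 9.13, 9.25 and 9.18 against 8.97, 9.16 and 9.0. ETS2 siRNA replicate 2 lay among the controls there, and the difference was -0.14 (adjusted p = 0.244). On the other side, NDUFA11 and NDUFB7 each had a difference of 0.11 (adjusted p = 0.297 and 0.322), with overlapping groups.

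NDUFV1 and NDUFV2 form the tip of the enzyme where NADH is oxidised, NDUFV1 holding the flavin and NDUFV2 an iron-sulfur cluster. Their differences had opposite signs, and neither passed the test. NDUFV1 read 11.35, 11.41 and 11.35 in control cells and 11.30, 11.27 and 11.20 after ETS2 siRNA, at -0.11 (SE 0.0430, adjusted p = 0.201). NDUFV2 read 11.36, 11.39 and 11.44 against 11.45, 11.51 and 11.52, at 0.10 (SE 0.0415, adjusted p = 0.262), and its other probe stood at 0.09. In both genes the 3 treated arrays lay on the same side of the 3 control arrays. NDUFB3, of the membrane arm, read 8.14, 8.13 and 8.16 against 8.21, 8.25 and 8.26, at 0.10 (adjusted p = 0.205), again without overlap. NDUFS1, the largest iron-sulfur subunit, stood at -0.07 (95% interval from -0.16 to 0.02).

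The arms of complex I were set apart after the values were seen. The NADH-oxidising part had a median of -0.012 over 10 genes, 4 positive and 6 negative. The quinone-binding part had -0.0033 over 5, 2 positive and 3 negative, and the membrane arm -0.023 over 18, 7 positive and 10 negative. The ranges of all 3 included 0. Among the quinone-binding subunits, NDUFA5 stood at 0.07 and NDUFA9 at -0.06, each without overlap between the groups, and the iron-sulfur subunits NDUFS3, NDUFS7 and NDUFS8 at -0.03, -0.0033 and 0.01.

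Complex II, the succinate dehydrogenase that also works in the citric acid cycle, was read through 3 of its genes. At the brightest probe of each there was no difference beyond 0.03 in either direction. SDHA, the flavin-carrying catalytic subunit, read 11.69, 11.79 and 11.76 in control cells and 11.79, 11.76 and 11.78 after ETS2 siRNA, at 0.03 (95% interval from -0.06 to 0.12). The membrane anchors SDHC and SDHD stood at -0.0033 and 0.01, with intervals from -0.09 to 0.08 and from -0.09 to 0.11. The groups overlapped for all 3 genes. SDHC and SDHD each have a dimmer probe, at -0.10 and -0.02 (adjusted p = 0.491 and 0.895 by limma over all probes). By number the dimmer probe of SDHD falls beside that of ATP5MG on chromosome 11, where SDHD lies. Its brighter probe falls beside that of ATP5IF1 on chromosome 1. The 2 probes of SDHC also lie far apart in number, and which of them reads the gene itself was not tested. The small differences of SDHC and SDHD are thus those of the brightest probes and may not be those of the genes. SDHB, and with it UQCRFS1, NDUFA4 and NDUFA4L2, was not analysed here.

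In complex III the median over 7 genes was -0.0067, with 3 positive and 4 negative, and the groups overlapped for all 7. UQCRB, a small subunit near the ubiquinone-binding site, read 7.94, 7.96 and 8.13 in control cells and 7.85, 7.78 and 7.95 after ETS2 siRNA. Its difference was -0.15 (SE 0.0649, adjusted p = 0.267), with 95% bounds of -0.30 and -0.00084. The core proteins UQCRC1 and UQCRC2 stood at 0.02 and -0.05, UQCR11 at 0.04 and the hinge protein UQCRH at 0.0033.

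In complex IV the median over 17 genes was -0.0033, with 6 positive, 10 negative and 1 at 0. The positive ones include COX7A1, COX6B2, COX7B2 and COX8C, which read below the floor. Among the 13 genes above it only COX7A2 and COX6A2 were positive, each at 0.02, and 10 were negative. COX6B1, a subunit on the intermembrane side of the enzyme that helps hold its dimer together, read 10.97, 10.93 and 10.99 in control cells and 10.85, 10.83 and 10.81 after ETS2 siRNA. The groups were separate, at -0.13 (SE 0.0379, 95% interval from -0.22 to -0.05, adjusted p = 0.0954). With 1 array left out the adjusted p lay between 0.0878 and 0.271, and it was 0.0478 over genes above the floor and 0.0353 with array weights. COX6C read 10.04, 10.01 and 10.02 against 9.76, 9.98 and 9.81. Its controls lay close together and its treated arrays spread over a range wider than that of any other gene plotted by array, with a difference of -0.17 (SE 0.0587, adjusted p = 0.152). COX5B stood at -0.10 (adjusted p = 0.302), with separate groups, while COX5A, which sits beside it on the matrix side, stood at -0.0067.

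Several subunits of complex IV come as a widely expressed form and a form typical of heart and skeletal muscle, lung or testis. The common forms COX4I1, COX6A1, COX7A2 and COX8A read above the floor on every array and differed by -0.0033, 0.00, 0.02 and -0.03. COX4I2, a form known from lung and tuned to low oxygen, read 7.07, 6.78 and 6.99 in control cells and 6.96, 6.96 and 6.91 after ETS2 siRNA, just above the floor, at -0.0033 (95% interval from -0.17 to 0.16). COX6A2, a muscle form, also read above the floor, between 8.01 and 8.14 on the 6 arrays, and stood at 0.02. The muscle form COX7A1 and COX6B2, COX7B2 and COX8C, known from testis, had both group means below the floor, so that their differences of 0.01, 0.07, 0.09 and 0.03 are between readings at background. COX7B stood at -0.05 and COX7A2L, which ties complexes III and IV into supercomplexes, at -0.02.

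**Figure D4:**
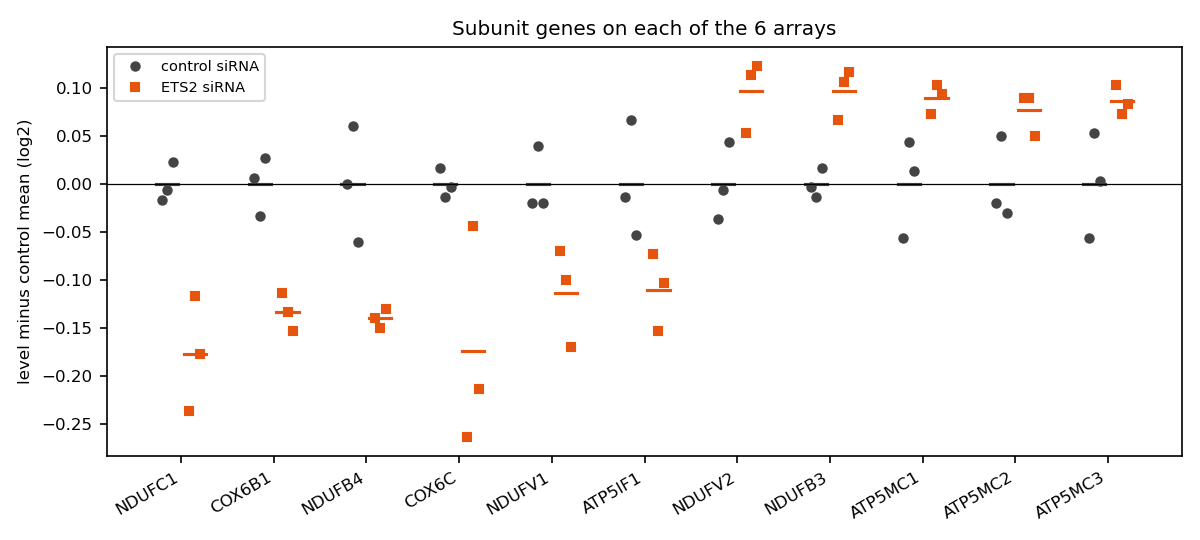
Level on each of the 6 arrays relative to the control mean (log2, vertical axis) for 11 subunit genes, chosen after their values were seen; circles are control, squares ETS2 siRNA, bars means of 3 arrays. The treated arrays of the 6 genes on the left lie below 0 and those of the 5 on the right above it, and none of the 11 reached an adjusted p under 0.05.

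In complex V the median over 18 genes was -0.0050, with 8 positive and 10 negative. The c ring, the rotor that protons turn, is built from a protein whose mature form is the same whether made from ATP5MC1, ATP5MC2 or ATP5MC3. ATP5MC1 read 12.76, 12.86 and 12.83 in control cells and 12.89, 12.92 and 12.91 after ETS2 siRNA, at 0.09 (SE 0.0411, adjusted p = 0.298). ATP5MC2 read 10.19, 10.26 and 10.18 against 10.30, 10.30 and 10.26, at 0.08 (SE 0.0402, adjusted p = 0.376). ATP5MC3 read 6.64, 6.75 and 6.70 against 6.80, 6.77 and 6.78, at 0.09 (SE 0.0419, adjusted p = 0.328), barely above the floor. Thus all 3 differences were positive and of like size, without overlap for ATP5MC1 and ATP5MC3 and touching at 1 value for ATP5MC2, and none passed the test. Across every setting tried the 3 lay between 0.058 and 0.11. All settings reuse the same 6 arrays, so this range is no independent support.

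The catalytic head of the synthase showed no common direction. ATP5F1A, its alpha subunit, stood at 0.07 (95% interval from -0.03 to 0.17) and ATP5F1B, the beta subunit that forms the catalytic sites with it, at -0.06 (95% interval from -0.16 to 0.03). The gamma and delta subunits of the central stalk, ATP5F1C and ATP5F1D, stood at -0.02 and -0.0067. In the peripheral stalk, which holds the head still, the 4 genes ATP5PB, ATP5PD, ATP5PF and ATP5PO were all negative, from -0.10 to -0.0033. ATP5PF read 10.05, 10.08 and 10 in control cells and 9.91, 9.96 and 9.97 after ETS2 siRNA, at -0.10 (adjusted p = 0.252). The 6 small membrane subunits had a median of 0.040, 4 positive and 2 negative. ATP5MK, among them, stood at 0.04, and its dimmer probe at 0.13 (adjusted p = 0.251 by limma over all probes). These groups within complex V were also made after the values were seen.

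ATP5IF1 encodes the inhibitor that blocks the synthase from running backwards and burning ATP when the proton gradient fails. It read 8.69, 8.77 and 8.65 in control cells and 8.63, 8.55 and 8.60 after ETS2 siRNA. The groups were separate but close, and the difference was -0.11 (SE 0.0458, 95% interval from -0.22 to -0.0046, adjusted p = 0.247).

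Genes that build, feed or regulate the chain were taken from 8 lists, of which 131 of 155 genes were measured. Among them 9 changed (6.87%, against 4.91% of all genes), 2 higher and 7 lower, with GABPA counted among the 7 by its brighter probe. The 13 subunits encoded in mitochondrial DNA were not analysed here. Of 17 complex I assembly factors and 18 for complex IV, 0 changed by limma, with 2 and 6 at an unadjusted p under 0.05, where 18.5% of all genes lay. Closest were DMAC2 (-0.17, adjusted p = 0.0757) and COX20 (-0.16, adjusted p = 0.0639), both lower. The others under that unadjusted p were higher. They were ACAD9 at 0.10 for complex I, and SCO1, COX10, COX15, COA7 and SCO2 at 0.16, 0.15, 0.14, 0.14 and 0.11 for complex IV. Of all genes 9.28% were higher and 9.23% lower at that p. The medians of the 2 lists of factors were 0.017 and 0.038.

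Assembly factors of the other complexes included 1 that rose and 1 that fell among 14, both acting on the ATP synthase. TMEM70, needed for the c ring to be built in, read 9.48, 9.61 and 9.57 in control cells and 9.82, 9.93 and 9.83 after ETS2 siRNA, a rise of 0.31 (SE 0.0505, adjusted p = 0.0147). ATPAF1, a chaperone that binds the beta subunit, read 7.51, 7.56 and 7.48 against 7.33, 7.31 and 7.29, a fall of 0.21 (SE 0.0394, adjusted p = 0.0250). Of 19 electron carriers and genes of coenzyme Q synthesis, COQ7, a hydroxylase of that pathway, fell by 0.19 (adjusted p = 0.0364). Cytochrome c, CYCS, stood at -0.05 (adjusted p = 0.586), and CYC1, the cytochrome of complex III, at 0.07 with separate groups (adjusted p = 0.325).

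Among 21 regulators of mitochondrial gene expression, GABPA fell at its brighter probe and 0 rose. GABPA is the DNA-binding subunit of GABP, whose core is the one printed above. It read 9.75, 9.88 and 9.79 in control cells and 9.51, 9.52 and 9.56 after ETS2 siRNA, a fall of 0.28 (SE 0.0454, adjusted p = 0.0145). Its dimmer probe stood at -0.08, so the fall given is that of the brighter of its 2 probes. By number the dimmer probe falls near that of NDUFV3 on chromosome 21, and the brighter lies far from it. The 2 probes therefore need not read the same place. Which of them reads GABPA itself was not tested, so the fall is that of a probe and may not be that of the gene. GABPB1, the partner of GABPA, stood at 0.08 (adjusted p = 0.341), NRF1 at -0.0067 and the coactivator PPARGC1A at 0.0067.

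Of 24 genes of the citric acid cycle and of pyruvate's entry into it, 0 rose and 3 fell (12.5%, against 2.63% of all genes lower), with a median of -0.038; the list as a whole was not tested. PDHB, a subunit of the E1 enzyme of pyruvate dehydrogenase, read 9.55, 9.66 and 9.62 in control cells and 9.23, 9.20 and 9.33 after ETS2 siRNA, a fall of 0.36 (SE 0.0499, adjusted p = 0.00827). DLAT, its E2 subunit, fell by 0.17 (adjusted p = 0.0372), and PDK3, a kinase that switches the complex off, by 0.30 (adjusted p = 0.0143). Of 18 genes for carriers and cristae, 1 rose and 1 fell. CHCHD3, which shapes cristae as part of MICOS, read 11.80, 11.86 and 11.91 against 11.51, 11.52 and 11.51, a fall of 0.34 (SE 0.0415, adjusted p = 0.00494). OPA1, which fuses inner membranes, rose by 0.22 (SE 0.0438, adjusted p = 0.0278).

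Of these 9 genes, PDHB and CHCHD3 stayed under the threshold whichever array was omitted. ATPAF1, COQ7 and DLAT were lost whichever array was left out, up to adjusted p-values of 0.114, 0.126 and 0.140. OPA1, TMEM70, GABPA and PDK3 were kept in 1, 2, 2 and 3 of the 6 cases, up to 0.123, 0.0654, 0.0687 and 0.0766. Scaling on ribosomal protein genes ended the calls of ATPAF1, COQ7, DLAT and OPA1. Centring the arrays on their medians, or a variance trend, ended that of COQ7.

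**Figure D5:**
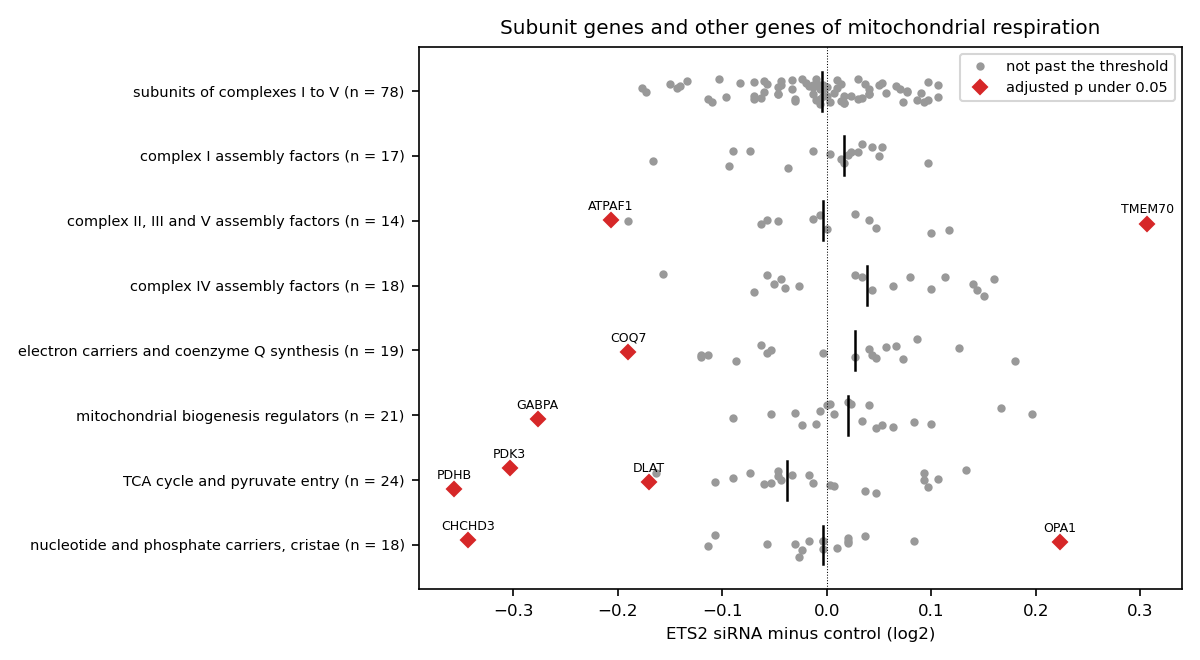
Difference after ETS2 siRNA (log2, horizontal axis) of the 78 subunit genes and of the measured genes of 7 other lists. Each point is a gene, placed vertically at random within its row, bars are medians, and diamonds mark the 9 genes with an adjusted p under 0.05, none of them in the row of subunits.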

How the data were processed

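RNA of 6 samples, 3 per group, was read on Affymetrix gene arrays. The deposited values are log2 levels; RMA is named in the submitters' processing notes, and for its settings and the build the sources used here give nothing. RMA adjusts background, equalises the arrays and combines probes. It removes shifts shared by all genes and compresses changes of dim ones, and the number of arrays limits the precision.

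Of 33297 probes 19460 carry 1 symbol. The probe with the highest mean stood for its gene, giving 18417 genes. The floor, 6.67, is the 95th percentile of 338 olfactory receptor genes, and 0 genes were left out for being dim. Differences were fitted with limma 3.58.1 in R 4.3.3 (lmFit and eBayes, two-sided, Benjamini-Hochberg over all genes); an exact permutation of 3 against 3 arrays cannot go below 0.1. The fit was tested on simulated data. Of 81 matching symbols, 2 pseudogenes and the divergent transcript NDUFV1-DT were set apart. No test was run over the subunits as a set.

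The genes and lists were chosen with earlier results of these data known. Named were ETS2, subunits fixed by role, the smallest p-values and largest differences per complex, and the changed genes of each list; others named were chosen after their values were seen. Tried besides were a block on replicate number, 3 rescalings, a floor filter, the mean over probes, 2 variance models, array weights, and each array left out.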

Additional observations from a re-analysis of the deposited data

Results flagged for a closer look

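Of 9 probes that carry several symbols, among them one of a subunit gene or its readthrough, 1 differed between the groups when all probes were tested with limma. It is shared by KCTD14 and the readthrough NDUFC2-KCTD14 and differed by 0.34, with the ETS2 siRNA arrays higher (adjusted p = 0.0352). It lies outside the comparisons above because it names no single gene. The probe shared by NDUFC2 and the same readthrough stood at -0.01.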

How the results depend on the processing

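The count of 0 changed subunit genes held with each array left out (213 to 735 genes in all), the replicate block, all 3 rescalings, the mean over probes and the robust variance model. It was 2 (COX6B1 and NDUFC1) over genes above the floor, 2 (the same genes) with array weights, 2 at an adjusted p under 0.1 and 6 with an intensity trend; the cause was not tested. Changed genes overall went from 904 to 469 with ribosomal scaling, 604 with the block, 1392 above the floor, 1480 with array weights and 1963 with the trend. Same-numbered arrays deviated together with correlations of 0.241, 0.233 and 0.0687. Differently numbered arrays had correlations of -0.243, -0.156, -0.150, -0.129, 0.0552 and 0.0687, the last between control replicate 3 and ETS2 siRNA replicate 1. The same-numbered values were all positive, but that last one equals the lowest of them. The correlations do not settle whether the replicate numbers mark pairs, and the main fit left them unpaired. Whether they mark shared handling was not tested. Under the block 5 of the 9 other mitochondrial genes remained and ATPAF1, COQ7, DLAT and OPA1 did not.

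With median-centring the median of all subunits was 0.0050 and 55.1% were positive. The complex IV median was -0.017 above the floor and -0.021 with array weights, and that of complex V 0.0090 with array weights. With 1 array left out complex IV lay between -0.018 and 0, and complex V between -0.0075 and 0.013.

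Signs that turned belonged to uncalled differences near 0. With median-centring SDHC, COX4I1 and COX4I2 stood at 0.0067 and COX5A at 0.0033. With ribosomal scaling SDHC, COX4I1 and COX4I2 stood at 0.0017. SDHD stood at -0.0033 after quantile normalisation, -0.0050 as the mean over probes and -0.0099 with array weights, under which COX7B stood at 0.038, COX8C at -0.037, COX6A2 at -0.017 and COX7A1 at -0.029. With 1 array left out the ranges were -0.0083 to 0.033 for SDHD, -0.017 to 0.018 for SDHC, -0.037 to 0.078 for UQCR11, -0.0033 to 0.037 for UQCRC1, -0.040 to 0.065 for UQCRH, -0.14 to 0.018 for COX7B, -0.030 to 0.10 for COX8C, -0.043 to 0.012 for COX7A2L, -0.0050 to 0.060 for COX6A2, -0.040 to 0.040 for COX7A1, -0.023 to 0.0067 for COX5A, -0.015 to 0.0050 for COX4I1 and -0.087 to 0.058 for COX4I2. Moving NDUFA4 and NDUFA4L2 to complex IV gave no value, as neither was analysed here. The number of arrays, 3 per group, limits the precision.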
